A study of Mus musculus with 4 samples.

Results

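The 9 genes described here, Spi1, Irf4, Irf8, Runx3, Id2, Zbtb46, Ahr, Cebpa and Cebpb, encode transcription factors tied to the identity of Langerhans cells and their dendritic and myeloid relatives. They were taken by gene symbol from a count table of 55487 genes. Each of the 9 symbols had 1 row, so none had to be chosen by its total. Langerhans cells are the antigen-presenting cells of the epidermis. The study isolated them from the ears of wild-type mice. Ears had been treated with Vaseline, the negative control (2 libraries), or with imiquimod, a Toll-like receptor 7 agonist that gives a psoriasis-like inflammation on mouse skin (2 libraries). The labels give no age, sex, strain, dose or treatment time, and do not say whether libraries came from separate or pooled animals. A p-value here therefore sets the difference between groups against the spread of these libraries, and that spread may be technical.

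Langerhans cells are seeded before birth, renew themselves in the epidermis, and depend on TGF-beta and CSF1 receptor signals. PU.1, the product of Spi1, is the ETS-family factor that keeps myeloid genes open and that induces RUNX3 in this lineage, and ID2 is needed for the cells to form. IRF4 and IRF8 are interferon regulatory factors that bind DNA together with PU.1. ZBTB46 marks classical dendritic cells, the aryl hydrocarbon receptor (AHR) senses environmental and tryptophan-derived ligands, and C/EBP-alpha and C/EBP-beta are leucine-zipper factors of myeloid cells that keratinocytes also express.

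The libraries held 14902782 to 76028955 counts. Cd207, which encodes langerin, was at 2255 and 6883 CPM (counts scaled to the library total and TMM factors) in the first and second Vaseline libraries, and at 1201 and 575 in the first and second imiquimod libraries (called Vaseline 1 and 2 and imiquimod 1 and 2). The other defining marker of the label, Epcam, was present in each library as well. The summed level of 10 Langerhans cell markers, none at 0 in any library, was 21554 and 56772 CPM with Vaseline and 7710 and 6448 CPM with imiquimod. The summed level of 8 keratinocyte markers was 18528 and 21587 CPM with Vaseline and 16835 and 4737 CPM with imiquimod, so RNA of epidermal cells was present throughout. The geometric mean of 15 genes used by all leukocytes, such as Ptprc and Coro1a, was 116 and 240.2 CPM with Vaseline and 51.1 and 56.9 CPM with imiquimod. In bulk RNA, fewer cells of a type and less RNA per cell cannot be told apart. Mitochondrially encoded genes took 7.23% and 7.92% of counts with Vaseline and 5.49% and 5.14% with imiquimod; the part of these differences in the results below was not tested. The labels also give each library a code of unstated meaning, which differs between the imiquimod libraries and is shared in its letters by the Vaseline libraries; if it marks a batch, batch and treatment cannot be told apart.

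With the edgeR quasi-likelihood test no factor changed between the groups at an adjusted p of 0.05, whereas DESeq2 called 2 of the 9, Spi1 and Irf4, lower (1.69% of all genes were called lower by DESeq2). By edgeR 0 of the 9 passed, where 0.0634% of all 39439 genes tested were called higher with imiquimod and 0.137% lower. All 9 had a negative log2 fold change (imiquimod over Vaseline), from -2.12 for Spi1 to -0.44 for Cebpa, with a median of -1.15. Over all genes tested the median was 0.41 and 60.6% of values were positive. These values depend on the genes fitted: among genes above background (defined below) fitted alone, 3 members were positive and 6 negative, with a median of -0.27, where the median of all such genes was 0.076. At an unadjusted p under 0.05 by edgeR there were 2 members, Spi1 and Irf4, both lower, where 5.1% of all genes tested were lower at that p. The level of 5 members was lower in both imiquimod libraries than in either Vaseline library, and 4 overlapped. Such a separation downward was seen in 20.9% of all genes tested (upward in 30.5%) and in 50.7% of the 14398 tested genes whose level per exonic kilobase was on average at least 5 times that of olfactory and vomeronasal receptor genes, a measure of background reads. All 9 members were above that background by this mean, which gives most weight to Vaseline 2, where background was lowest, and so favours genes high there. The count of 5 is therefore given as a description.

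**Figure D1:**
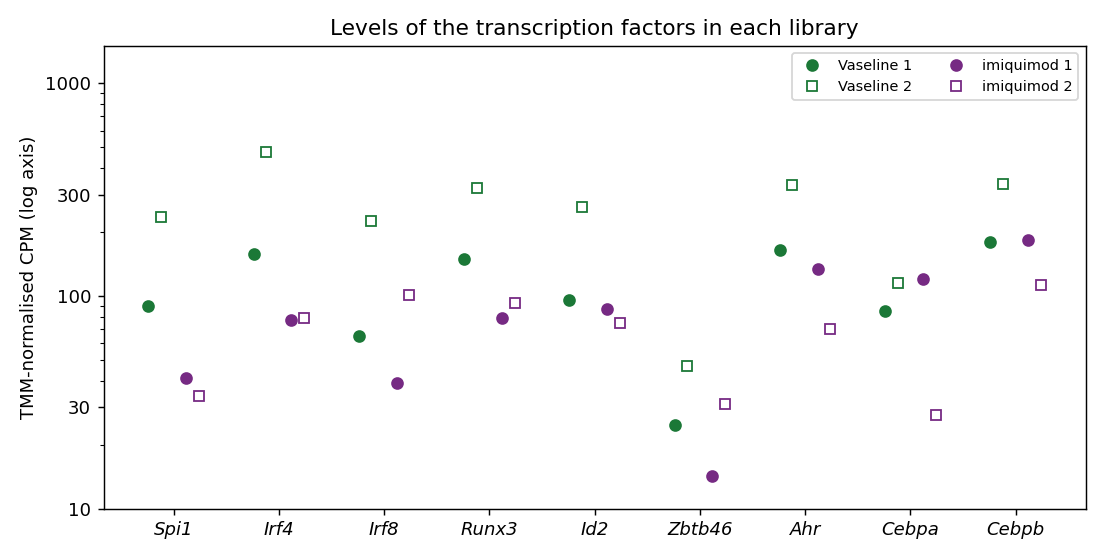
TMM-normalised CPM (log axis) of the 9 transcription factors, 1 point per library; circles are replicate 1 and squares replicate 2 of each treatment. Vaseline 2 holds the highest value of 8 of the 9 genes, and Cebpa is the exception, with 120.3 CPM in imiquimod 1.

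Spi1, which encodes PU.1 (ENSMUSG00000002111; GRCm38 chromosome 2, 91082390 to 91115756), had 89.5 and 235 CPM with Vaseline and 41.3 and 33.8 CPM with imiquimod (replicate 1 first, here and below). Both imiquimod libraries lay below both Vaseline libraries, although the Vaseline libraries themselves differed 2.63-fold. The means were 162 ± 103 and 37.5 ± 5.29 CPM (SD, n = 2 each), and the log2 fold change was -2.12 (SE 0.75, edgeR adjusted p = 0.225). With DESeq2 in place of edgeR, Spi1 was called lower (log2 fold change -2.44, adjusted p = 0.0148), as was Irf4 (-2.36, adjusted p = 0.0222). When genes above background were fitted alone, neither passed by DESeq2 (adjusted p = 0.119 for Spi1 and 0.293 for Irf4).

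Irf4 (ENSMUSG00000021356; chromosome 13, 30749226 to 30766976) followed Spi1 closely. Its level was 157 and 475 CPM with Vaseline and 77.2 and 79.1 CPM with imiquimod. The imiquimod libraries differed by 1.02-fold, and the Vaseline libraries by 3.02-fold. The log2 fold change was -2.01 (SE 0.85, edgeR adjusted p = 0.312). Of the 9 members, Spi1 and Irf4 had the most alike profiles over the 4 libraries, with a root mean square difference of 0.15 in centred log2 CPM.

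Irf8 (ENSMUSG00000041515; chromosome 8, 120736358 to 120756694), the other PU.1 partner, had a different course. It had 65.2 and 224 CPM with Vaseline and 39.0 and 101 CPM with imiquimod. The groups overlapped, since imiquimod 2 lay above Vaseline 1. Its log2 fold change was -1.04 (SE 0.73, edgeR adjusted p = 0.456), 0.01 among genes above background, and 0.06 without Vaseline 2. Imiquimod 2 had 2.58 times the level of imiquimod 1.

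The bases before the starts of Irf4 and Irf8 are shown because these genes, which encode partners of one protein family, did not keep a constant ratio over the libraries. RefSeq promoters (GRCm38.p6) were found for 7 of the 9 members, with 9 starts in all. The 250 bases before each start were searched on both strands for GAGGAA (PU.1), GAAANNGAAA (the interferon-stimulated response element), TTCNNNGAA (GAS, the interferon-gamma activated site), TTGCNNAA (C/EBP), TGTGGT (RUNX), GCGTG (AHR) and CAGCTG (an E-box). Capitals mark matches, and both regions are on the plus strand, at chr13:30748983-30749232 for Irf4 and chr8:120736108-120736357 for the upstream start of Irf8.
Irf4: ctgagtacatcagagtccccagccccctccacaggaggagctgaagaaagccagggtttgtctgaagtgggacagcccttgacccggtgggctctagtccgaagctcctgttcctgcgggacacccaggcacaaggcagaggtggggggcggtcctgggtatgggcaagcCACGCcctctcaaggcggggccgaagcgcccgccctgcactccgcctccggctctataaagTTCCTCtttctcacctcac
Irf8: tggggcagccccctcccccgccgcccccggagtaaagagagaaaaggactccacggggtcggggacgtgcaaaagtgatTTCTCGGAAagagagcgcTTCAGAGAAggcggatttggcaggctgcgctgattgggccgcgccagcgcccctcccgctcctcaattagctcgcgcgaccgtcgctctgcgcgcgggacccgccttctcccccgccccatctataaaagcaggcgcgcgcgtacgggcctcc
The Irf4 window held TTCCTC, the PU.1 letters on the opposite strand, and CACGC, the AHR letters on the opposite strand. The Irf8 window held 2 GAS matches, TTCTCGGAA and TTCAGAGAA. The 250 bases before the other Irf8 start held no match to any of the letters searched. Over the 250 bases before all 32851 RefSeq starts, 23.3% held the PU.1 letters, 28.2% the AHR letters and 7.02% the GAS letters. No match overlapped another in these windows, and a match describes letters, not binding. Whether these letters have any part in the levels of Irf4 and Irf8, or in their ratio, was not tested.

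Within a library the ratio of 2 genes does not depend on how libraries are scaled. The count of Irf8 over that of Irf4 was 0.415 and 0.472 with Vaseline and 0.505 and 1.27 with imiquimod. Both imiquimod values exceeded both Vaseline values, with a difference of 0.86 in mean log2 ratio (-0.32 ± 0.94 with imiquimod against -1.18 ± 0.13 with Vaseline, SD, n = 2 each). An exact permutation test gave p = 0.333, two-sided, the smallest it can give with 2 against 2, or 0.762 adjusted over the 16 ratios compared. Without imiquimod 2 the difference was 0.19, so most of it lay in that library. Irf8 over Spi1 was 0.729, 0.952, 0.946 and 2.98 in the same order, where imiquimod 1 lay between the Vaseline libraries.

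**Figure D2:**
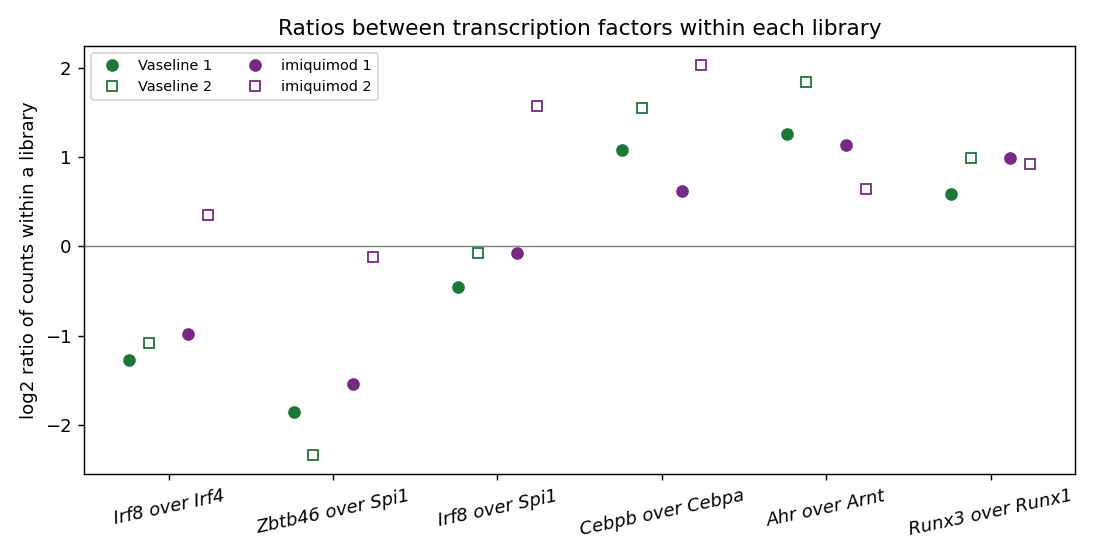
Log2 ratio of counts within each library for 6 pairs of genes, 1 point per library; circles are replicate 1 and squares replicate 2. Irf8 over Irf4, Irf8 over Spi1, Zbtb46 over Spi1 and Cebpb over Cebpa are highest in imiquimod 2, while Runx3 over Runx1 stays between 0.59 and 0.99.

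Zbtb46 (ENSMUSG00000027583; chromosome 2, 181387762 to 181459426) was also higher in imiquimod 2 than in imiquimod 1. It had 24.7 and 46.7 CPM with Vaseline and 14.2 and 31.1 CPM with imiquimod, with overlapping groups and its highest value in Vaseline 2. Its log2 fold change was -0.64 (SE 0.61, edgeR adjusted p = 0.555), but 0.32 among genes above background and 0.39 on library totals. Zbtb46 over Spi1 was 0.276 and 0.199 with Vaseline and 0.344 and 0.921 with imiquimod, a difference of 1.26 in mean log2 ratio (exact permutation p = 0.333, n = 2 each), or 0.55 without imiquimod 2. At 4.71 and 3.28 times the background in imiquimod 2 and 1, Zbtb46 lay closest of the members to it; with the expected background subtracted from both genes, the difference was 1.02.

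Summed markers of other myeloid cells, like Irf8 and Zbtb46, were higher in imiquimod 2 than in imiquimod 1, and so were those of several non-myeloid cell types. The summed level of 8 neutrophil markers, 1 of which (Elane) was at 0 in Vaseline 2 and imiquimod 1, was 22.2 and 56.7 CPM with Vaseline and 71.9 and 242 CPM with imiquimod. That of 8 monocyte and dermal macrophage markers was 218 and 277 CPM with Vaseline and 74.6 and 192 CPM with imiquimod. The 8 markers of other dendritic cells summed to 175 and 306 CPM with Vaseline and 78.5 and 99.7 CPM with imiquimod, and their defining genes Xcr1, Clec9a, Cd209a and Siglech were each below 8 CPM in every library. From imiquimod 1 to imiquimod 2 the sums also rose for fibroblasts (25.7 to 53.3 CPM), B cells (18.9 to 31.4) and endothelium (21.5 to 36.7). They rose as well for melanocytes (14.7 to 20.3 CPM) and mast cells (27.2 to 33.7 CPM). Background was 0.51 and 0.78 CPM per exonic kilobase in imiquimod 1 and 2. The Langerhans cell, keratinocyte and epidermal T cell sums were lower in imiquimod 2. The part of any of these cells, or of background, in the Irf8 and Zbtb46 values was not tested.

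Runx3, a RUNX factor of Langerhans cells and of epidermal T cells (ENSMUSG00000070691; chromosome 4, 135120652 to 135177990), had 150.0 and 322 CPM with Vaseline and 78.6 and 92.9 CPM with imiquimod. The groups did not overlap, and the log2 fold change was -1.46 (SE 0.80, edgeR adjusted p = 0.385). Its relative Runx1, the RUNX factor of blood stem cells, had a like course: Runx3 over Runx1 was 1.5 and 1.99 with Vaseline and 1.98 and 1.89 with imiquimod. The summed level of 8 epidermal T cell markers was 265 and 273 CPM with Vaseline and 143 and 130 CPM with imiquimod. The part of T cells in the Runx3 values was not tested. The 250 bases before the upstream Runx3 start (chr4:135120395-135120644, plus strand) are shown because they held the RUNX letters in 2 copies. Both read ACCACA, the letters on the opposite strand, and stand in capitals. Of all starts, 14.0% held the RUNX letters. The 250 bases before the other Runx3 start held no match to any of the letters searched.
Runx3: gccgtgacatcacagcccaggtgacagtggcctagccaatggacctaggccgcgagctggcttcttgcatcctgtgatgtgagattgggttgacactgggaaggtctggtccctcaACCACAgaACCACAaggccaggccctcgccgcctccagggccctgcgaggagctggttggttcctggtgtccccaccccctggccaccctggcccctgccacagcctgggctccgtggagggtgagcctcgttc

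Id2, which encodes an inhibitor of E-protein transcription factors (ENSMUSG00000020644; chromosome 12, 25093799 to 25097140), had 96.2 and 263 CPM with Vaseline and 86.8 and 75.1 CPM with imiquimod. The imiquimod values lay just below Vaseline 1, and the log2 fold change was -1.15 (SE 0.76, edgeR adjusted p = 0.438). Its count over the summed counts of the E-protein genes Tcf3, Tcf4 and Tcf12 was 0.513 and 1.15 with Vaseline and 0.522 and 0.744 with imiquimod. These ranges overlapped, and the Vaseline libraries were farther apart than the group means.

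Ahr (ENSMUSG00000019256; chromosome 12, 35497974 to 35535038) had 165 and 333 CPM with Vaseline and 134 and 70.2 CPM with imiquimod, without overlap. The log2 fold change was -1.29 (SE 0.81, edgeR adjusted p = 0.425). Ahr over Arnt, the gene of its binding partner, was 2.39 and 3.59 with Vaseline and 2.19 and 1.56 with imiquimod. The difference in mean log2 ratio was -0.67 (exact permutation p = 0.333, n = 2 each), or -0.37 without Vaseline 2 and -0.42 without imiquimod 2. Cyp1a1, the classical AHR target, was below 4 CPM in every library and below 5 times the background on average. It had 1.52 and 0.88 CPM with Vaseline and 3.07 and 1.90 CPM with imiquimod. Its log2 fold change was 0.99 (SE 0.81, edgeR adjusted p = 0.506). Ahrr, the AHR repressor and also a target, had 32.0 and 75.8 CPM with Vaseline and 16.9 and 25.6 CPM with imiquimod, a log2 fold change of -1.33 (SE 0.63, edgeR adjusted p = 0.342).

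Cebpa (ENSMUSG00000034957; chromosome 7, 35119293 to 35121928) was the member that differed most between the imiquimod libraries. It had 84.9 and 115 CPM with Vaseline, 120.3 CPM in imiquimod 1 and 27.6 CPM in imiquimod 2. Imiquimod 1 was the highest library and imiquimod 2 the lowest. The log2 fold change was -0.44 (SE 0.70, edgeR adjusted p = 0.718); it was 0.28 without imiquimod 2 and -1.93 without imiquimod 1. The keratinocyte markers were lowest in imiquimod 2 too. Per 1000 CPM of summed keratinocyte markers, a ratio chosen after its values were seen, Cebpa had 4.58 and 5.31 CPM with Vaseline and 7.15 and 5.82 CPM with imiquimod, a range of 1.56-fold against 4.36-fold for its CPM. The same ratio ranged 1.94-fold for Ahr, 2.44-fold for Cebpb, 3.07-fold for Id2, and from 4.20-fold (Runx3) to 9.16-fold (Irf8) for the other members. Its range over all genes was not computed, and the part of keratinocytes in the Cebpa values was not tested.

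Cebpb (ENSMUSG00000056501; chromosome 2, 167688915 to 167690418) had 179.9 and 336 CPM with Vaseline and 184 and 112 CPM with imiquimod, with overlapping groups and a log2 fold change of -0.80 (SE 0.83, edgeR adjusted p = 0.583). On library totals the value was 0.03. Exons of Tmem189 on the other strand cover 20.7% of its exonic bases, and whether counting used strand is not given in the sources used here, so some of its reads may belong to that gene. For Ahr and Cebpa such cover is 2.06% and 1.93%, and for the other members 0%. Cebpb over Cebpa was 2.12 and 2.93 with Vaseline and 1.53 and 4.07 with imiquimod. The imiquimod libraries thus lay on both sides of the Vaseline libraries, and the means of the log2 ratio, 1.32 ± 0.33 and 1.32 ± 1.0 (SD, n = 2 each), were nearly equal.

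Per exonic kilobase, the scale on which levels of different genes can be compared, Cebpb was the most abundant member in each of the 4 libraries and Zbtb46 the least. The mean over the libraries was 135 CPM per kilobase for Cebpb, 53.5 for Id2, 40.2 for Irf4, 37.1 for Spi1, 33.0 for Cebpa, 32.2 for Runx3, 28.5 for Ahr, 15.2 for Irf8 and 3.43 for Zbtb46. Neighbours from Cebpb to Irf8 in this order had overlapping ranges over the libraries, and the highest Zbtb46 value (5.49) lay just under the lowest of Irf8 (5.53). Cebpa ranged from rank 2 in imiquimod 1 to rank 8 in imiquimod 2. Irf8 was at rank 8 in 3 libraries and at rank 5 in imiquimod 2.

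Relative to the leukocyte reference, most members had positive rather than negative values, as did 97.5% of all genes tested. The 15 reference genes had a median log2 fold change of -1.80, and 14 of them were negative. When libraries were scaled to these genes, 7 of the 9 members had a positive log2 fold change and 2, Spi1 (-0.33) and Irf4 (-0.20), a negative one. The largest was 1.21 for Cebpa (SE 0.72), followed by 1.06 for Zbtb46 (SE 0.74) and 0.91 for Cebpb (SE 0.71), and none passed (edgeR adjusted p from 0.166 to 0.802), where 0.155% of all genes were called higher and 0% lower. On this scaling the median of all genes tested was 2.04.

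Per reference gene, Spi1 had 0.770 and 0.980 with Vaseline and 0.808 and 0.594 with imiquimod, which overlapped. Irf4 had 1.35, 1.98, 1.51 and 1.39 in the same order, so both Vaseline libraries bracketed the imiquimod ones. Runx3 had 1.29 and 1.34 with Vaseline and 1.54 and 1.63 with imiquimod. Its groups differed by 0.27 in mean log2, with SDs of 0.04 and 0.06 (exact permutation p = 0.333, n = 2 each). Id2 had 0.828 and 1.10 with Vaseline and 1.70 and 1.32 with imiquimod. Cebpb had 1.55, 1.40, 3.61 and 1.97, and Zbtb46 0.213, 0.195, 0.278 and 0.547, in the order Vaseline 1 and 2, imiquimod 1 and 2. In all, 4 of the 9 members, Runx3, Id2, Zbtb46 and Cebpb, were higher in both imiquimod libraries, 0 were lower and 5 overlapped. Of the genes above background, 57.5% were higher in both imiquimod libraries on this measure and 2% lower in both, and nothing is read from the members' count of 4.

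Against the summed Langerhans cell markers, another ratio chosen after its values were seen, Spi1 was the steadiest member. Per 1000 CPM of markers it had 4.15 and 4.15 CPM with Vaseline and 5.35 and 5.24 CPM with imiquimod, a 1.29-fold range, whereas its CPM ranged 6.97-fold. Id2 had 4.46 and 4.64 CPM per 1000 with Vaseline and 11.3 and 11.6 CPM with imiquimod. The corresponding ranges were 1.68-fold for Irf4, 2.54-fold for Runx3 and from 2.61-fold to 7.72-fold for Id2, Irf8, Zbtb46, Ahr, Cebpa and Cebpb. Every member, Spi1 included, was higher on this ratio in both imiquimod libraries than in either Vaseline library. The marker sum itself was lower with imiquimod (7710 and 6448 CPM against 21554 and 56772 CPM). Cd74 alone gave 9310 of the 21554 CPM in Vaseline 1. The share of all genes that was higher on this ratio was not computed, so nothing is read from the members being higher on it.

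**Figure D3:**
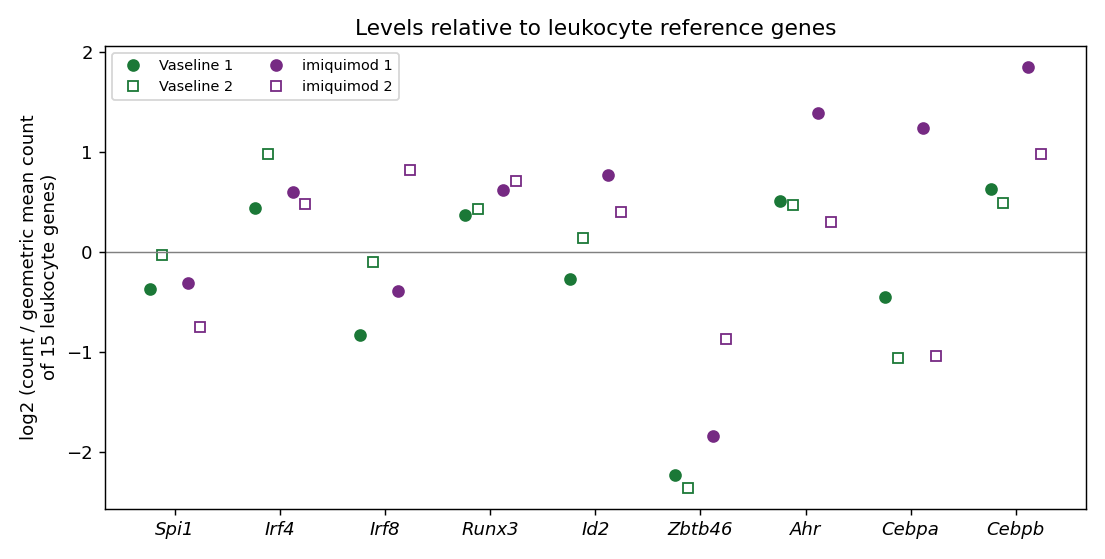
Log2 of each gene's count over the geometric mean count of 15 leukocyte genes in the same library, 1 point per library; circles are replicate 1 and squares replicate 2. The Spi1 and Irf4 groups overlap, and Runx3, Id2, Zbtb46 and Cebpb lie higher in both imiquimod libraries.

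**Figure D4:**
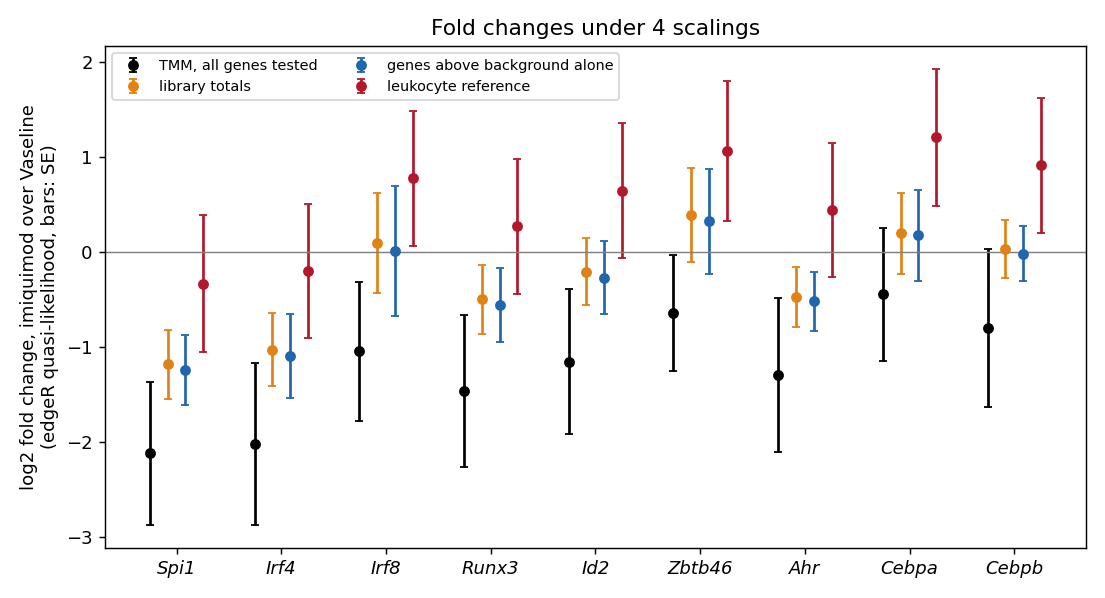
Log2 fold change of imiquimod over Vaseline by edgeR with its SE, under 4 scalings: TMM factors over all genes tested, library totals, genes above background fitted alone, and the leukocyte reference. Spi1 and Irf4 stay negative under each, while the direction of the other 7 depends on the scaling, and none passes.

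The other members of these factor families were counted from lists. None of the 7 other IRF genes passed over all genes (median log2 fold change -0.50, 3 positive and 4 negative). Irf7, the interferon-induced regulator, had 9.76 and 11.1 CPM with Vaseline and 43.1 and 25.3 CPM with imiquimod, with no overlap (log2 fold change 1.71, SE 0.61, edgeR adjusted p = 0.232). Among genes above background, DESeq2 called Irf7 higher (log2 fold change 2.40, adjusted p = 1.78e-07), beside 0.688% of those genes. Irf5, of Toll-like receptor signalling, had -1.48, and Irf2 and Irf3 had -0.99 and -0.81.

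Of 12 other ETS genes, 5 RUNX family and cofactor genes, 6 ID and E-protein genes and 5 other C/EBP genes, none passed. Their median log2 fold changes were -0.75, -1.36, -0.37 and -0.55. Fli1, an ETS factor of blood and endothelium, had -1.39, and Cbfb, the partner without which RUNX proteins bind DNA weakly, had -1.65 (SE 0.70, edgeR adjusted p = 0.312). Tcf3, which encodes E2A, had -1.29 and Id1 -0.67. Cebpd, the C/EBP gene of acute-phase responses, had -0.52, and Ddit3, of the stress response, -0.90. Among 13 partners and targets of AHR none passed (median -0.09, 5 positive and 8 negative). Aldh3a1, also a gene of corneal and surface epithelia, had 1.17 (SE 0.65, edgeR adjusted p = 0.387), which rested on imiquimod 1. It had 27.4 and 31.6 CPM with Vaseline, 126 CPM in imiquimod 1 and 8.38 CPM in imiquimod 2. Of 32 other dendritic cell and macrophage factors none passed (median -0.45, 8 positive and 24 negative). Ikzf1, a lymphoid and myeloid regulator, had -1.58, Stat5a -1.25, and Rbpj, the nuclear effector of Notch, -1.34.

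Genes known to lie downstream of the members were listed as well; several are shared between lists, and Csf3r stands both under PU.1 and under C/EBP. Of 22 genes that need or bind PU.1 in myeloid cells, 21 were found and none passed (median log2 fold change -1.63, 3 positive and 18 negative). Btk, a kinase, had -2.24 (SE 0.63, edgeR adjusted p = 0.0879), Tyrobp, a signalling adaptor, -2.10, and Itgax, the integrin CD11c, -2.54, while Csf3r, the G-CSF receptor of neutrophils, had 1.80. Among genes above background DESeq2 called 3 of them lower, Csf1r, Itgax and Cst3, beside 1.08% of those genes. Csf1r and Itgax are also among the 10 Langerhans cell markers, of which DESeq2 called 6 lower there. The part of Langerhans cell numbers in these values was not tested. Of 16 genes known as IRF8 or IRF4 targets none passed by edgeR (median -0.67), and DESeq2 called Cst3, which this list shares with the PU.1 list, lower among genes above background (log2 fold change -1.51, adjusted p = 0.0253). By edgeR Nos2, which makes nitric oxide, had 1.65, Ciita, the class II transactivator, -2.0, the protease gene Ctss -2.30 and the chemokine gene Ccl22 -1.71. Csf3r and Nos2 lay below 5 times the background on average.

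Of 16 genes known as targets of C/EBP-alpha or C/EBP-beta, 2 rose and 0 fell with the edgeR quasi-likelihood test over all genes, where 0.0634% of all genes were called higher and 0.137% lower, and the median log2 fold change was 0.45. Lcn2, which binds bacterial siderophores, had 2.15 and 4.03 CPM with Vaseline and 18.8 and 50.2 CPM with imiquimod (log2 fold change 3.49, adjusted p = 0.000398). Saa3, an acute-phase protein, had 2.60 and 1.30 CPM with Vaseline and 7.03 and 16.6 CPM with imiquimod (2.65, adjusted p = 0.0365). Hp and Csf3, for haptoglobin and G-CSF, had 2.72 and 2.63 and did not pass. Saa3, Hp and Csf3, and Csf3r of the same list, lay below 5 times the background on average. Lcn2, Saa3, Hp, Csf3 and Csf3r were highest in imiquimod 2, the library with the highest neutrophil marker level (242 CPM against 22.2 to 71.9 CPM). Csf3r, Mpo and Elane of this list are themselves among the neutrophil markers, so the match of Csf3r is partly built in. The part of neutrophils in these values was not tested. Among genes above background edgeR called 0 of 14398 genes (at an unadjusted p under 0.05, 771 in the upward and 690 in the downward direction), and DESeq2 called Il1a, Il1b, Ptgs2 and Lcn2 of this list higher, beside 0.688% of those genes. Cebpb and Cebpa themselves had log2 fold changes of -0.80 and -0.44.

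**Figure D5:**
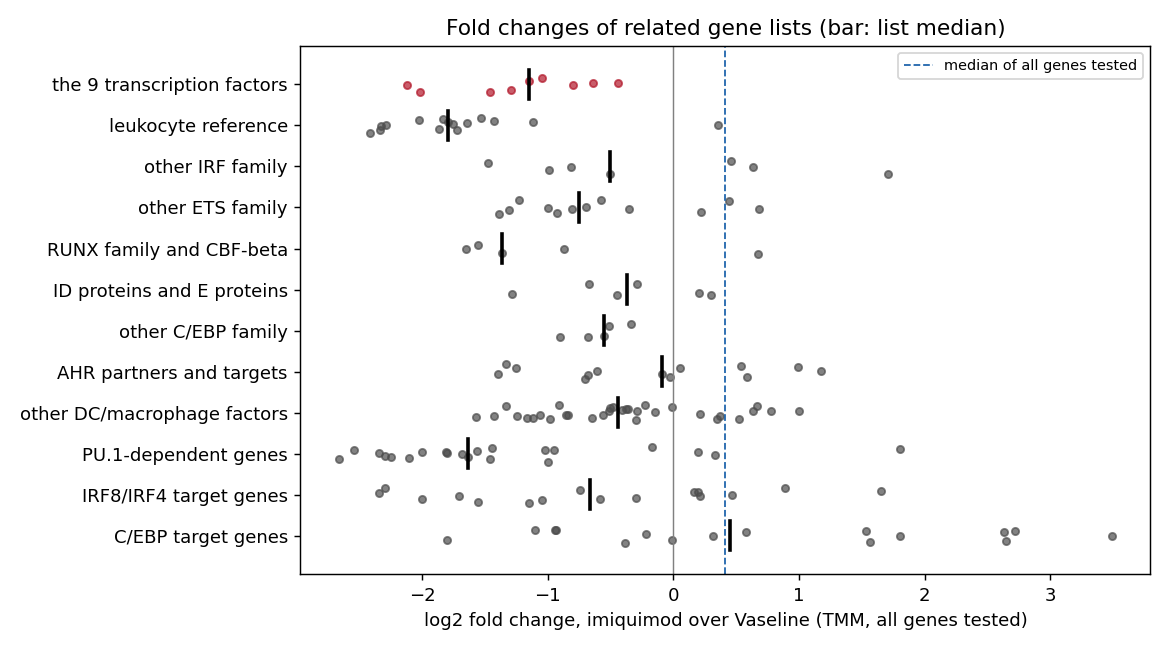
Log2 fold change of imiquimod over Vaseline (TMM, all genes tested) for the 9 transcription factors and 11 related lists, 1 point per gene, with the list median as a bar and the median of all genes tested as a dashed line at 0.41. The PU.1 list (median -1.63) and the leukocyte reference (-1.80) lie lowest, and the C/EBP targets (0.45) highest.

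For each member, the most alike genes were sought among 167 listed genes with a mean of at least 5 CPM, by the root mean square difference of centred log2 CPM over the 4 libraries. Spi1 was nearest to Tyrobp (0.12) and Cst3 (0.13), and Irf4 to Hcls1 (0.14) and Spi1 (0.15). Irf8 was nearest to Col1a2 (0.07) and Ccr7 (0.08), and Zbtb46 to Il12b (0.07) and Ccl17 (0.13). Ccr7 guides dendritic cells to lymph nodes, and had 63.0 and 208 CPM with Vaseline and 32.9 and 97.2 CPM with imiquimod. Runx3 was nearest to Fermt3 (0.09) and Cd86 (0.10), Id2 to Etv3 (0.12) and Rbpj (0.14), and Ahr to Ptges3 (0.10) and Cd24a (0.13). Cebpa was nearest to Elf1 and Klf4, an epidermal and myeloid factor (0.07 and 0.08), and Cebpb to Irf3 (0.06) and Smad7 (0.11). With 4 libraries such likeness is common: among 13440 genes of any kind, 31, Tyrobp included, were as near to Spi1 as Tyrobp. As near to Ahr as Ptges3 were 176, Ptges3 included, and 1, Col1a2 itself, was as near to Irf8 as Col1a2. Col1a2, a fibroblast marker, lay below 5 times the background on average, with 4.34 and 11.5 CPM in imiquimod 1 and 2.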

How the data were processed

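The authors deposited a table of unscaled whole-number counts for each gene; Trimmomatic, HISAT2, SAMtools and StringTie on the build GRCm38 are named in the submitters' processing notes. Per the labels' protocols, 10 to 70 ng of total RNA went into libraries of a stranded pico-input kit. Versions, annotation release, strand setting and the treatment of multi-mapped reads are not given in the sources used here. Each column was matched to its sample by the code in its name.

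The whole table was tested with edgeR 4.0.16 (R 4.3.3): filterByExpr (minimum count 10, minimum total 15), TMM factors, the quasi-likelihood test in its newer form (legacy set to false), two-sided, with no replicate block and Benjamini-Hochberg adjustment over 39439 genes. The SE was derived as log2 fold change divided by root F. Profiles were compared on log2 CPM with a prior count of 2. DESeq2 1.42.0 and limma 3.58.1 (voom) were alternatives. Exon unions came from GENCODE vM21, and background from the median count per exonic kilobase of 1493 protein-coding olfactory and vomeronasal receptor genes. As a mean of ratios, the measure of genes above background gives most weight to Vaseline 2, where background was lowest. Named genes were every member, up to 4 of smallest p per list with those past the threshold, and the 2 most alike genes of each member. A gene that met this rule is not reported here. The members and lists were chosen with earlier results of these data known, so no pattern here is independent support. The edgeR fit was tested on simulated data, but the outcome is not given here and no result rests on it. Plots were drawn with matplotlib 3.10.9.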

Additional observations from a re-analysis of the deposited data

How the results depend on the processing

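Over 18 other settings per member, 140 of 162 fold changes kept direction and side of the threshold, 2 (Spi1 and Irf4 with DESeq2) passed where edgeR did not, and 20 reversed; none of the reversed values passed. With the leukocyte reference the values were Irf8 0.78, Runx3 0.27, Id2 0.64, Zbtb46 1.06, Ahr 0.44, Cebpa 1.21 and Cebpb 0.91. On library totals alone they were Irf8 0.092, Zbtb46 0.39, Cebpa 0.20 and Cebpb 0.029. Among genes above background they were Irf8 0.012, Zbtb46 0.32 and Cebpa 0.18; there DESeq2 gave Zbtb46 0.29 and Cebpa 0.14, and limma-voom Zbtb46 0.15 and Cebpb 0.014. With 1 library left out, Irf8 ran from -1.89 (without imiquimod 2) to 0.061 (without Vaseline 2), and Cebpa from -1.93 (without imiquimod 1) to 0.28 (without imiquimod 2). The cause was not tested, except that each scaling shifts all genes: the median of all genes was 0.41 with TMM, 0.16 with RLE, 0.76 with upper-quartile factors, 1.30 on totals and 2.04 with the leukocyte reference.

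Over all genes, 25 were higher and 54 lower. The counts were 17 and 14 with RLE, 41 and 56 with upper-quartile factors, 8 and 5 on totals, 61 and 0 with the leukocyte reference, 0 and 0 without a filter, 27 and 124 with a stricter filter (10 counts per library and 50 in total), 6 and 667 with DESeq2 and 41 and 136 with limma-voom. Among genes above background edgeR called 0 and 0 (771 and 690 at an unadjusted p under 0.05), DESeq2 99 and 155, and limma-voom 0 and 0. The older quasi-likelihood form gave 3 and 5. Leaving out 1 library gave 8 to 2959 higher and 0 to 317 lower, the highest without Vaseline 1 and the lowest without imiquimod 2; an arm left with 1 library is assumed to vary like the other.

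Replicate numbers mark nothing shared in the labels. With the replicate block 1 gene was higher and 0 lower, and no member passed. Deviations of same-numbered libraries correlated at -0.33 across all genes, and crossed numbers gave 0 and 0. The older form, the crossed numbers and the other tools among genes above background were chosen after seeing the data. Subtracting background moved each of the 16 ratio differences by less than 1 SD of the more variable group; leaving out 1 of 2 libraries cannot move them by more than that, so it says nothing about their stability. The members had 222 to 21573 counts per library.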
